A study of Homo sapiens with 12 samples.

Results

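BCL2L11 (gene ID 10018) encodes BIM, a pro-apoptotic protein of the BCL2 family. It is 1 of the 14582 named genes on the arrays and was read by a single probe set, the only candidate under a rule that takes the probe set with the highest mean over the 12 arrays. The other 8 measured genes whose symbols begin with BCL2 serve as context. The samples are SKMEL2 cells, an established human melanoma line, harvested 24 hours after treatment, with 3 arrays in each of 4 arms. The DT arm received dabrafenib at 100 nM, a RAF kinase inhibitor, with trametinib at 10 nM, an inhibitor of MEK1 and MEK2. The E arm received entinostat at 1 µM, an inhibitor of class I histone deacetylases. The DTE arm received all 3 agents at these doses, and the DMSO arm received vehicle. All arms share the line and its medium. The titles call the replicates biological while the design text speaks of technical ones, and the p-values below therefore reflect array-to-array spread only, which may be technical.

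BIM belongs to the BH3-only proteins, which carry a single short helix of the BCL2 family. That helix fits a groove of the pro-survival proteins BCL2, BCL-XL and MCL1, and BIM can also activate BAX and BAK1, which open the outer mitochondrial membrane. ERK phosphorylates BIM and marks it for destruction by the proteasome, and FOXO transcription factors raise its transcription. In melanoma cells BIM is known as a mediator of death after inhibition of the MAPK pathway. The arrays measure RNA, so the control of the protein by ERK was outside the measurement, and the probe set gives 1 value for the gene without separating its splice forms.

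The promoter is shown because the FOXO factors that act on this gene are themselves on the arrays. The window of 300 bases lies at chr2:111120664-111120963 on the plus strand (RefSeq, GRCh38.p14) and runs from 250 bases before the start of the gene to 50 bases after it. Capitals mark GTAAACA, the core of the FOXO binding motif.
BCL2L11 promoter: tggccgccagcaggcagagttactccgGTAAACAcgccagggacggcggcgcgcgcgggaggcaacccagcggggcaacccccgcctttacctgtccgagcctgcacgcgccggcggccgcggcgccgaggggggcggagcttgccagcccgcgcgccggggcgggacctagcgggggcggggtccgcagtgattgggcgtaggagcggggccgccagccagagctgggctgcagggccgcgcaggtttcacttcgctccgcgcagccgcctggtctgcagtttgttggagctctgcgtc
The motif, searched as GTAAACA on both strands, occurs 1 time, with its first base 223 bases before the start of the gene. It was present in 3.42% of the 35116 promoter windows of this length, and in 1 of 13 BCL2 family genes with a window, which is BCL2L11. The AP-1 motif TGANTCA was absent from the window and present in 7.71% of all windows. The MYC E-box CACGTG was also absent, against 7.26% of all windows. G and C made up 74.7% of the window, against a median of 58.7% over all windows. These matches describe letters in a window and not bound sites.

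The overall level of the arrays differed between arms and touches every value below. The geometric mean intensity of the brighter genes, those above the median gene, was 103 ± 7.22 in DT, 143 ± 18.7 in E, 65.5 ± 3.78 in DTE and 129 ± 15 in DMSO (mean ± SD, n = 3 each). The sources used here do not say how the submitters scaled the arrays to each other, and in a bulk extract fewer cells and less RNA per cell cannot be told apart. Each BCL2L11 difference is therefore given in deposited values and after quantile normalization. This normalization gives all arrays 1 distribution and so removes any difference in overall level, whatever its source. Differences of other genes are in deposited values unless quantile normalization is named. Of 8 melanocyte markers 7 were measured. Their summed intensities were 4205 to 4734 in DT, 4252 to 6092 in E, 2427 to 2630 in DTE and 5044 to 5737 in DMSO. S100B alone averaged 2628 in DT and 2542 in DMSO, so the sums hide changes of single markers. In DT MITF (-2.09), MLANA (-0.95), TYR (-0.74) and PMEL (-0.56) were called lower than in DMSO (log2), and TYRP1 (0.81) higher. In that comparison 23.1% of all genes were called lower and 4.72% higher. In E PMEL was called higher (0.67) and MLANA lower (-0.54), against 20.8% and 4.81% of all genes. In DTE all measured markers but TYRP1 were called lower, with MITF at -2.19. There 60.8% of all genes were called lower and the median gene was at -0.54. Whether the markers fell more than other genes was not tested. KRT5 and KRT1 of keratinocytes and DCN of fibroblasts lay among the dimmest 25% of genes on every array. LUM, the other fibroblast marker measured, read 5.39 to 7.06 in DT, 12.5 to 15.9 in E, 10.6 to 13.9 in DTE and 5.81 to 7.22 in DMSO, and was called higher in E (adjusted p = 5.9e-06) and in DTE (adjusted p = 2.0e-05). It was among the dimmest 25% on all arrays but 1 in E and 2 in DTE. All 3 keratinocyte markers summed to 54.1 to 58.2 in DT, 38.4 to 47.7 in E, 32.2 to 36.7 in DTE and 35.3 to 43.0 in DMSO. KRT14, the brightest of them, was called higher in DT (0.70 ± 0.15, limma adjusted p = 7.9e-04). Of the leukocyte markers only CD14 was measured, at 45.8 to 62.8 in DT, 53.2 to 69.2 in E, 23.7 to 29.9 in DTE and 25.3 to 32.3 in DMSO. The part of these shifts in the results was not tested. SPRY4, a feedback inhibitor whose RNA reports ERK output, differed from DMSO by -4.04 ± 0.17 in DT and by -4.73 ± 0.17 in DTE on the log2 scale (SE). In E it was also called lower, by -0.57 ± 0.17 (limma adjusted p = 0.014). DUSP6, the other ERK output gene checked, differed by -1.12 ± 0.13 in DT and -2.74 ± 0.13 in DTE. In E DUSP6 measured 0.26 ± 0.13 and was not called (limma adjusted p = 0.17).

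Entinostat alone raised BCL2L11, on every scaling that was tried. With all 3 agents the gene stood near its vehicle level in deposited values, on arrays where most genes were dimmer, and was the highest of the 4 arms relative to the other genes of its array. With dabrafenib plus trametinib alone it overlapped the vehicle arrays in deposited values, and lay above all 3 of them in rank and after quantile normalization.

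BCL2L11 read 123, 107 and 137 intensity units on the DT arrays. It read 178, 203 and 229 on the E arrays. It read 104, 132 and 126 on the DTE arrays, against 142, 150 and 110 on the DMSO arrays. The E arrays lay above all others, while the DT, DTE and DMSO arrays overlapped. By arm the intensities were 122 ± 14.5 in DT, 203 ± 25.5 in E, 120 ± 14.5 in DTE and 134 ± 21.1 in DMSO (mean ± SD, n = 3 each), in the order E, DMSO, DT, DTE from high to low, of which the last 3 do not differ beyond their spread. All 12 values were well above the level of the dimmest 25% of genes, which was 10.7 to 16.2 on single arrays.

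After quantile normalization the order changed. BCL2L11 then read 120, 120 and 132 in DT, 152, 149 and 151 in E, 189, 216 and 198 in DTE, and 106, 112 and 103 in DMSO. From high to low the order was DTE, E, DT, DMSO, and no 2 neighbouring arms overlapped.

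The rank of the gene on its own array needs no scaling between arrays, because it stays the same under any rescaling that keeps the order of an array's values. BCL2L11 exceeded 80.8%, 80.9% and 82.7% of named genes on the DT arrays, and 85.3%, 84.9% and 85.1% on the E arrays. It exceeded 88.7%, 90.4% and 89.3% of genes on the DTE arrays, against 78.1%, 79.2% and 77.3% on the DMSO arrays. The 4 arms were thus separate in rank, in the order DTE, E, DT, DMSO. Quantile normalization also works from the order of values within an array, so its matching order of arms is not separate evidence. The mean rank was higher than in DMSO by 3.26 percentage points in DT, 6.93 in E and 11.3 in DTE.

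**Figure D1:**
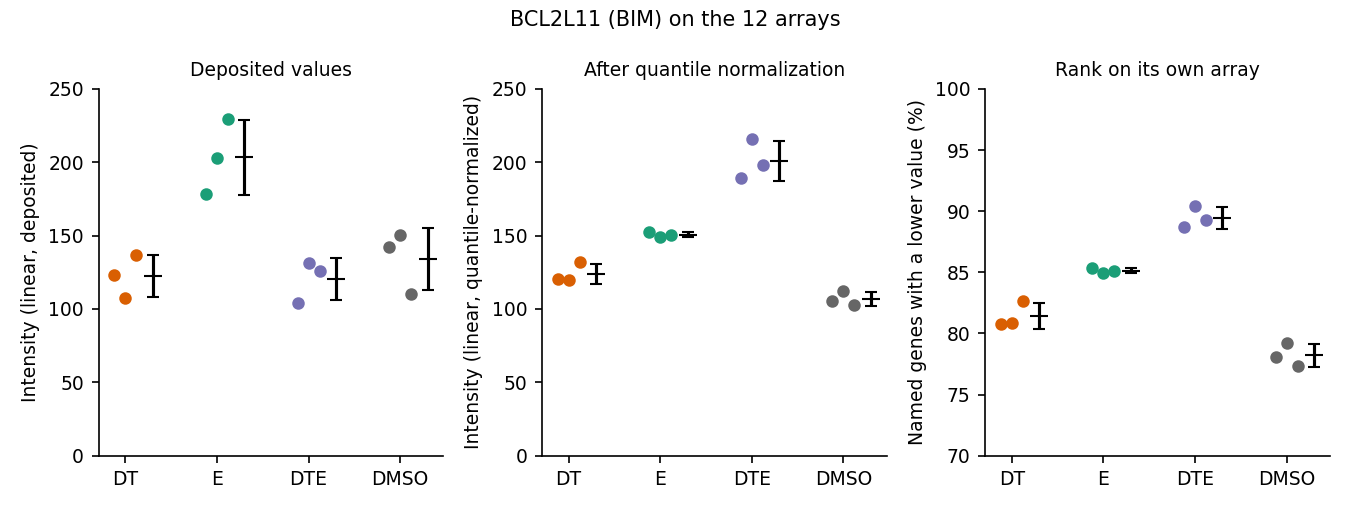
BCL2L11 on the 12 arrays, with points for arrays and bars for the mean and SD (n = 3) of each arm; the y axes are the deposited linear intensity, the quantile-normalized linear intensity, and the percent of named genes with a lower value on the same array (axis from 70 to 100). In deposited values the E arrays, at 178 to 229, lie above all others, while after quantile normalization and in rank the DTE arrays are highest.

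Entinostat against vehicle asks what inhibition of histone deacetylases does alone. BCL2L11 was 0.61 ± 0.15 higher on the log2 scale in E than in DMSO, 1.52-fold (SE of the fit, limma, adjusted p = 0.0046). The 3 E arrays did not overlap the 3 DMSO arrays. In this comparison 25.6% of all genes passed the test, 20.8% as higher and 4.81% as lower, and the median difference of all genes was 0.14. After quantile normalization the difference was 0.50 ± 0.08, 1.41-fold (adjusted p = 3.2e-04), and exceeded that of 91.4% of genes. There 31.5% of genes passed, 15.3% as higher and 16.2% as lower.

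Dabrafenib plus trametinib against vehicle asks what inhibition of the MAPK pathway does alone. In deposited values BCL2L11 differed by -0.13 ± 0.15 between DT and DMSO (adjusted p = 0.62, 95% interval -0.44 to 0.19), where 27.8% of genes passed the test, 4.72% as higher and 23.1% as lower, and the median gene was at -0.12. After quantile normalization the difference was 0.21 ± 0.08, with 3 DT arrays above 3 DMSO arrays (adjusted p = 0.054, interval 0.05 to 0.38), in a comparison where 29.6% of genes passed. The interval is unadjusted and leaves out 0, while the p adjusted over all genes misses the threshold. When only the named genes entered the quantile normalization, a choice made after the data were seen, the difference was 0.23 and passed (adjusted p = 0.043), so that the call for DT rests on which probe sets are normalized.

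With all 3 agents BCL2L11 differed from DMSO by -0.15 ± 0.15 in deposited values (adjusted p = 0.41, 95% interval -0.47 to 0.17). The median gene differed by -0.54 and 65.1% of genes passed the test, 60.8% as lower and 4.26% as higher. The difference of BCL2L11 exceeded that of 73.9% of genes. After quantile normalization it was 0.91 ± 0.08, 1.88-fold (adjusted p = 9.0e-07), where 43.0% of genes passed, 20.0% as higher, and 95.6% of genes had a smaller difference. Centring each array on its median gene gave 0.49 (adjusted p = 9.0e-04) and centring on the brighter genes gave 0.82 (adjusted p = 4.7e-06).

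**Figure D2:**
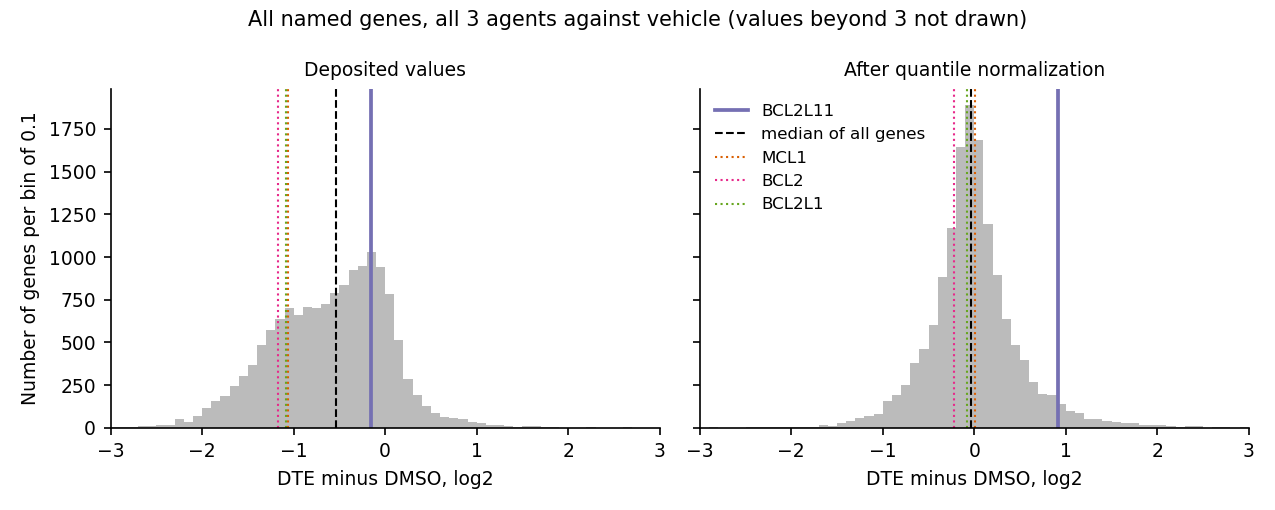
Number of named genes (y axis) by the difference between DTE and DMSO (x axis, log2, bins of 0.1), in deposited and quantile-normalized values; lines mark BCL2L11, the median of all genes and 3 pro-survival genes. BCL2L11, at -0.15 in deposited values, lies to the right of the median of -0.54, and at 0.91 after quantile normalization it lies in the right tail.

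What each treatment adds to the other was read from the arms that share it. Entinostat on top of dabrafenib plus trametinib gave a difference of -0.02 ± 0.15 between DTE and DT (adjusted p = 0.9), where 58.1% of genes passed and the median gene was at -0.41. The quantile difference was 0.70 ± 0.08 (adjusted p = 1.5e-05), larger than in 94.4% of genes, where 34.4% passed and 16.2% were higher. Dabrafenib plus trametinib on top of entinostat gave -0.76 ± 0.15 between DTE and E (adjusted p = 1.0e-04), but here 78.8% of genes passed, 78.5% as lower, and the median gene was at -0.82. The sign turned after quantile normalization, to 0.42 ± 0.08 (adjusted p = 0.0021), where 20.1% of genes passed and 9.34% were higher. In deposited values BCL2L11 was thus lower in DTE than in E, as most genes were, and lay 0.06 above the median gene. The brighter genes, to which BCL2L11 belongs, had a geometric mean intensity of 143 in E and 65.5 in DTE. Whether it was called higher depended on the scaling. With median centring the difference was 0.17 and was not called (limma adjusted p = 0.18). With centring on the brighter genes it was 0.36 and was called (limma adjusted p = 0.0029).

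The interaction subtracts the entinostat effect without the kinase inhibitors (E against DMSO) from the effect with them (DTE against DT), and asks whether the effects of the treatments add up on the log2 scale. For BCL2L11 it was -0.63 ± 0.22 in deposited values (adjusted p = 0.016), the same as the median of all genes, -0.63, in a comparison where 62.7% of genes passed. Without DMSO replicate 3 the interaction was -0.49 (adjusted p = 0.053), and without DTE replicate 1 it was -0.53 (adjusted p = 0.056). After quantile normalization it was 0.20 ± 0.11 (adjusted p = 0.37, 95% interval -0.04 to 0.44), with 4.11% of genes past the threshold. A departure from additivity was thus not detectable for BCL2L11 once the arrays shared a distribution, and the interval allows departures of up to 0.44.

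**Figure D3:**
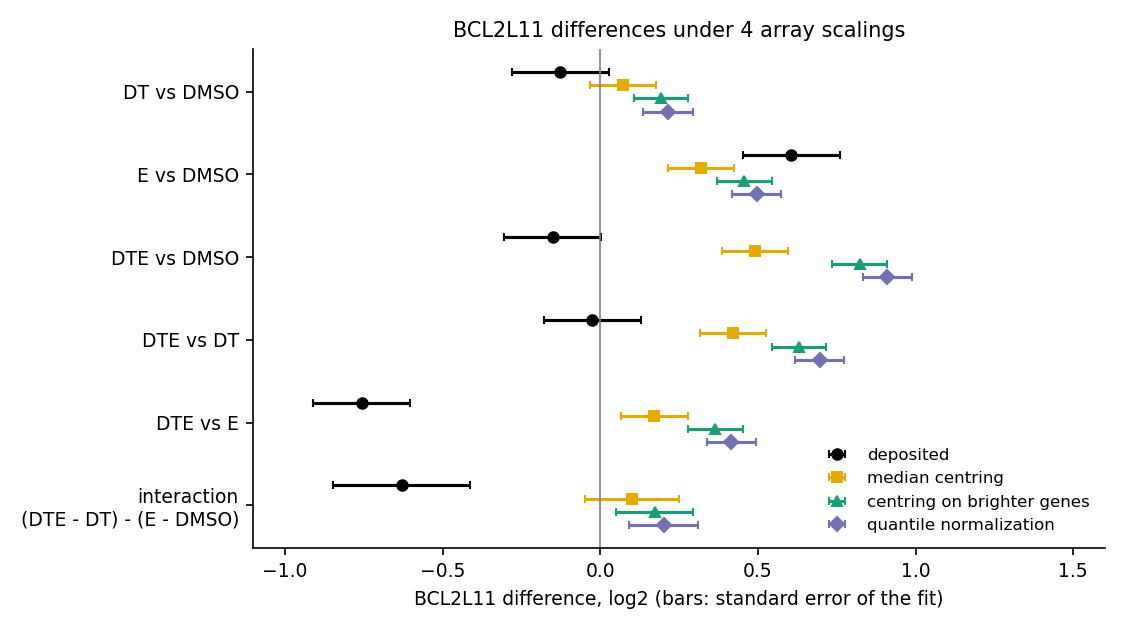
BCL2L11 differences (x axis, log2, with the SE of the fit) in the 6 comparisons (y axis) under 4 ways of scaling the arrays. The E minus DMSO difference lies right of 0 under each, between 0.32 and 0.61, whereas the DTE minus DMSO difference is -0.15 in deposited values and 0.49 to 0.91 under the other scalings.

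The pro-survival genes, whose proteins BIM binds, were mostly called lower with all 3 agents in deposited values, where BCL2L11 was not called. Of the 6 genes on that list 5 were measured, and BCL2L2 is not analysed here. With all 3 agents 4 of the 5 fell in deposited values and 0 rose, against 60.8% of all genes lower, with a median of -1.08 against -0.54 over all genes. The all-gene median, here and in the lists below, includes dim genes, whose level moved less. The brighter genes averaged 129 in DMSO and 65.5 in DTE, and the level of the dimmest 25% averaged 12.6 and 11.1. The median difference is thus not a comparison with genes of like brightness. MCL1 read 133, 133 and 153 in DTE, against 301, 313 and 262 in DMSO (-1.06 ± 0.14, adjusted p = 6.6e-07). BCL2 read 38.8, 41.2 and 38.9 in DTE, against 92.5, 99.8 and 76.5 in DMSO (-1.17 ± 0.15). The DTE arrays lay below every DMSO array for both genes. BCL2L1, which encodes BCL-XL (-1.08 ± 0.15), and BCL2A1 (-1.23 ± 0.14) fell as well, while BCL2L10 lay in the dimmest 25% of genes on all arrays. After quantile normalization only BCL2A1 was lower (-0.66 ± 0.13, adjusted p = 9.2e-04), which is 1 of 5 against 23.0% of all genes, and MCL1 stood at 0.01 ± 0.09.

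The single treatments were read in the same way. In DT against DMSO 2 of 5 fell, BCL2 (-0.60 ± 0.15) and MCL1 (-0.47 ± 0.14), against 23.1% of all genes lower, and after quantile normalization BCL2 alone (-0.28 ± 0.09, adjusted p = 0.027), against 15.0%. In E against DMSO 0 of 5 passed limma's test, with 1 at an unadjusted p under 0.05, and 0 of 5 passed after quantile normalization, with 0 at an unadjusted p under 0.05. Of all genes 25.6% and 31.5% passed in these 2 settings.

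A difference taken within an array cancels any factor common to its genes. The log2 value of BCL2L11 minus the mean of the 5 pro-survival genes, set to 0 at the DMSO mean, was 0.09, -0.02 and 0.29 on the DT arrays. It was 0.48, 0.43 and 0.50 on the E arrays. It was 0.59, 0.92 and 0.88 on the DTE arrays, against 0.06, 0.09 and -0.15 on the DMSO arrays. The E and DTE arrays lay above every DMSO array and did not overlap each other, and the DT arrays overlapped DMSO. The mean difference from DMSO was 0.12 in DT, 0.47 in E and 0.79 in DTE. These values show unequal change of the genes and not a ratio of their transcripts, and no test was run on them.

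**Figure D4:**
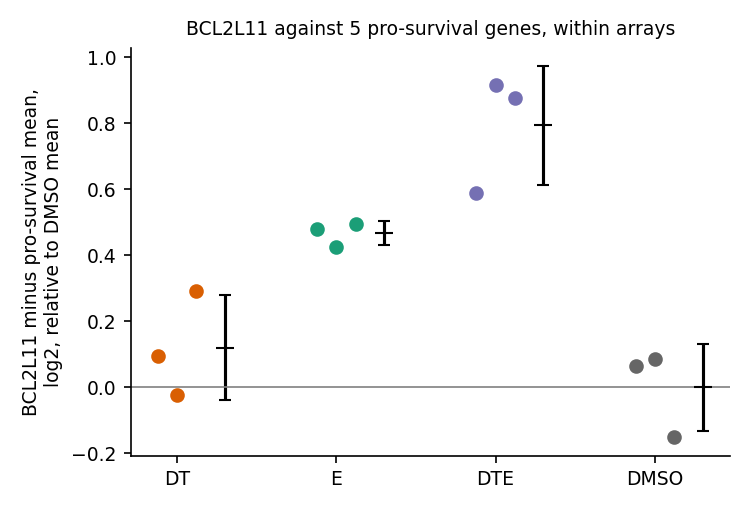
Log2 value of BCL2L11 minus the mean log2 value of 5 pro-survival genes on the same array, relative to the DMSO mean (y axis), by arm; points are arrays, bars the mean and SD (n = 3). The DTE arrays, at 0.59 to 0.92, lie above the E arrays, at 0.43 to 0.50, and both lie above the DMSO arrays, at -0.15 to 0.09.

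Among the other BH3-only genes, BMF and PMAIP1 were likewise not called with all 3 agents in deposited values. BMF encodes a BH3-only protein held at the cytoskeleton, and read 49.7, 50.6 and 54.6 in DTE, against 48.6, 53.0 and 37.4 in DMSO (0.17 ± 0.17, adjusted p = 0.41). After quantile normalization BMF was higher by 1.04 ± 0.10 in DTE (adjusted p = 3.2e-06) and by 0.92 ± 0.10 in DT (adjusted p = 1.7e-05), and measured 0.02 ± 0.10 in E (adjusted p = 0.89). In deposited values it rose in DT, at 82.4, 60.5 and 85.6 against the DMSO values above (0.72 ± 0.17, adjusted p = 0.0028). BMF was thus called with dabrafenib plus trametinib, in which arm BCL2L11 was not. Whether the 2 genes differ from each other was not tested.

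PMAIP1 encodes NOXA, which binds MCL1. It read 41.8, 40.8 and 35.4 in E, against 17.5, 15.7 and 15.99 in DMSO (1.26 ± 0.15, adjusted p = 5.7e-07, quantile 0.88 ± 0.16). In DTE it read 17.8, 17.5 and 16.9 (0.08 ± 0.15, adjusted p = 0.64, quantile 0.44 ± 0.16 with adjusted p = 0.043). In DT 2 of its 3 arrays lay in the dimmest 25% of genes. Both BCL2L11 and PMAIP1 were called higher in E on both scales.

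The remaining measured BH3-only genes were lower in DTE in deposited values, and of these only BID was also called lower after quantile normalization. BID, which is cleaved by caspases to link death receptors to mitochondria, fell furthest (-1.54 ± 0.15, quantile -0.70 ± 0.10), followed by BAD (-0.89 ± 0.16), BBC3, which encodes PUMA (-0.59 ± 0.16), and BIK (-0.35 ± 0.14). Of the 7 measured BH3-only genes 0 were called higher and 4 lower in DTE against DMSO, against 4.26% and 60.8% of all genes, with a median of -0.35 against -0.54. The share called lower is near that of all genes, and HRK is not analysed here. After quantile normalization 3 were higher, BCL2L11, BMF and PMAIP1, and 1 lower, BID, against 20.0% and 23.0% of all genes, with a median of 0.09. In DT against DMSO 1 of 7, BMF, was higher and 1, BID, lower on both scales, against 4.72% and 23.1% of all genes in deposited values and 14.6% and 15.0% after quantile normalization. In E against DMSO 2 of 7 were higher on both scales, BCL2L11 and PMAIP1, against 20.8% of all genes in deposited values and 15.3% after quantile normalization, and BID was lower after quantile normalization (-0.36 ± 0.10, adjusted p = 0.013).

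The effectors BAX, BAK1 and BOK, which form the mitochondrial pore, all fell in DTE against DMSO in deposited values, by a median of -1.15 against -0.54 for all genes, of which 60.8% were lower. That all-gene median again includes dim genes, whose level moved less. BAX read 49.3, 57.5 and 48.3 in DTE, against 131, 153 and 120 in DMSO (-1.38 ± 0.13). After quantile normalization BAX (-0.36 ± 0.11, adjusted p = 0.017) and BAK1 (-0.45 ± 0.11, adjusted p = 0.0041) were still lower, 2 of 3 against 23.0% of all genes. BOK measured -0.21 ± 0.10 there (adjusted p = 0.1).

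Over the 9 measured symbols that begin with BCL2, 1 was called higher in E against DMSO on both scales, BCL2L11, against 20.8% of all genes in deposited values and 15.3% after quantile normalization. After quantile normalization 1 of 9, again BCL2L11, was called higher in DTE against DMSO, against DT and against E, where 20.0%, 16.2% and 9.34% of all genes were higher in the same order. The shares are near or below those of all genes, and these are calls and not tests of BCL2L11 against the other 8 genes. BCL2L12 (-1.23 ± 0.14, quantile -0.16 ± 0.11) and BCL2L13 (-1.23 ± 0.15, quantile -0.52 ± 0.09) fell in DTE in deposited values, and BCL2L13 alone of these 2 was called after quantile normalization (adjusted p = 2.6e-04). BCL2L14 lay in the dimmest 25% of genes on all 12 arrays and BCL2L15 on all but 1 of the E arrays, so no folds are given for them.

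**Figure D5:**
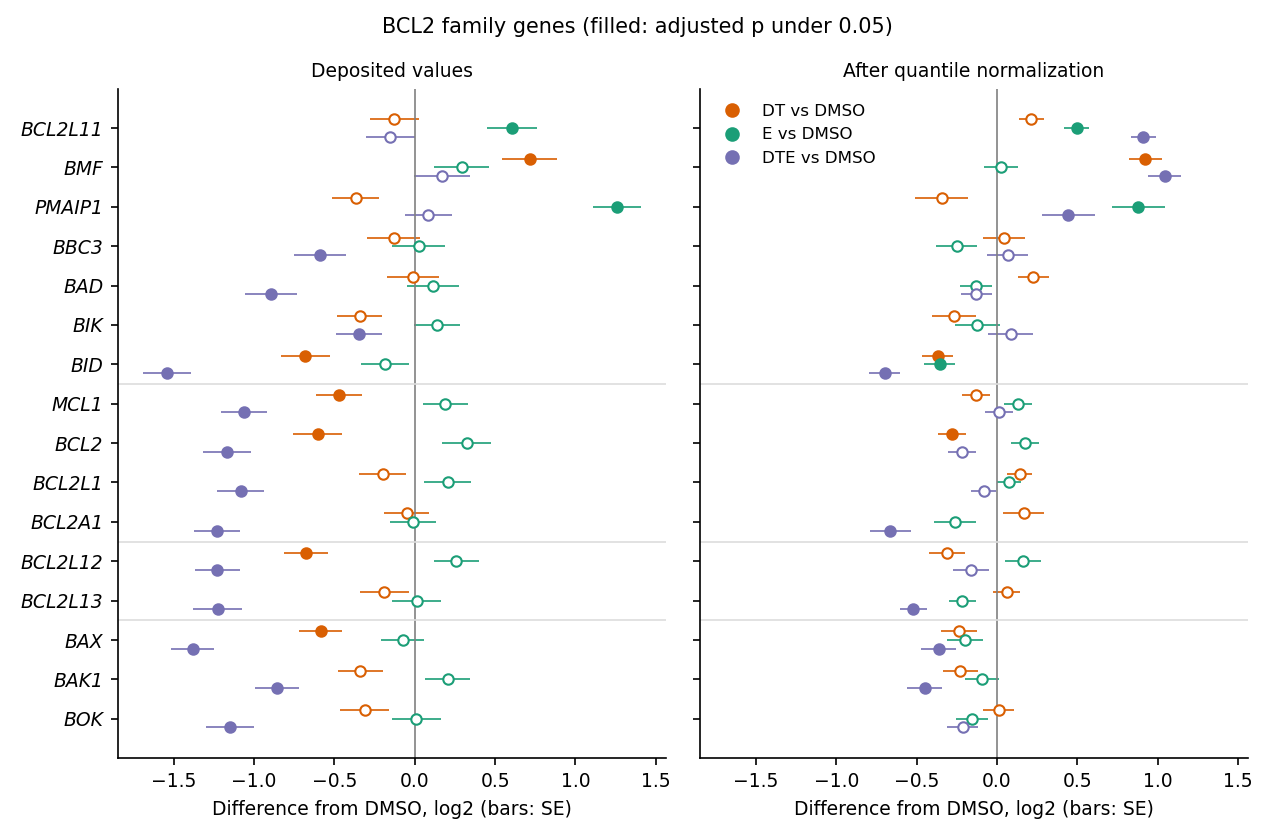
Differences from DMSO (x axis, log2, bars are the SE of the fit) of 16 BCL2 family genes (y axis) in DT, E and DTE, in deposited and quantile-normalized values; filled points have an adjusted p under 0.05. From top to bottom the blocks are BH3-only genes, pro-survival genes, BCL2L12 with BCL2L13, and effectors, and in the DTE arm BCL2L11, BMF and PMAIP1 stand right of the other genes on both scales.

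Of 10 genes listed as regulators of BCL2L11 transcription 9 were measured, CEBPA is not analysed here, and calls fell in both directions. FOXO1, a factor that binds the motif printed above, read 107, 139 and 144 in E, against 63.0, 81.9 and 56.9 in DMSO (0.96 ± 0.16, adjusted p = 5.4e-05, quantile 0.76 ± 0.12). In DTE FOXO1 read 56.6, 65.5 and 62.1, a difference of -0.12 ± 0.16 from DMSO in deposited values (adjusted p = 0.53) and of 0.84 ± 0.12 after quantile normalization (adjusted p = 5.6e-05). FOXO1 thus had the same calls as BCL2L11 against DMSO on both scales, and in DT it measured 0.29 ± 0.12 after quantile normalization (adjusted p = 0.083). The likeness is one of calls: the quantile differences in E and DTE were 0.76 and 0.84 for FOXO1, against 0.50 and 0.91 for BCL2L11.

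FOXO3, the family member best known for acting on BCL2L11, did not share these calls. It read 48.1, 54.8 and 79.7 in E, against 85.9, 112 and 62.7 in DMSO (-0.51 ± 0.19, adjusted p = 0.052), and was lower there after quantile normalization (-0.67 ± 0.13, adjusted p = 0.0017). In DTE FOXO3 fell in deposited values (-1.15 ± 0.19) and measured -0.21 ± 0.13 after quantile normalization (adjusted p = 0.24). FOXO4, given after its values were seen, was higher in DT on both scales (0.46 ± 0.14, adjusted p = 0.016, quantile 0.79 ± 0.09). In E it measured 0.35 ± 0.14 (adjusted p = 0.075, quantile 0.21 ± 0.09). In DTE FOXO4 was lower in deposited values (-0.46 ± 0.14) and higher after quantile normalization (0.58 ± 0.09). The 3 FOXO genes thus differed in their calls. FOXO proteins are controlled by phosphorylation and nuclear export, which RNA levels do not show.

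MYC fell in DT (-2.57 ± 0.17, quantile -2.18 ± 0.10), in E (-1.35 ± 0.17, quantile -1.45 ± 0.10) and in DTE (-2.83 ± 0.17, quantile -1.86 ± 0.10). The AP-1 subunit JUN rose in DT (2.19 ± 0.14), in E (0.96 ± 0.14) and in DTE (0.37 ± 0.14, quantile 1.42 ± 0.13). The cell cycle factor E2F1 fell in DT (-1.91 ± 0.16) and in DTE (-1.90 ± 0.16, quantile -0.82 ± 0.11). EZH2, a histone methyltransferase known to repress BCL2L11, fell in DT (-1.05 ± 0.13, quantile -0.72 ± 0.09) and rose in E (0.49 ± 0.13, quantile 0.41 ± 0.09). In DTE EZH2 fell in deposited values (-1.23 ± 0.13, adjusted p = 3.0e-08) and measured -0.18 ± 0.09 after quantile normalization (adjusted p = 0.13). In DTE against DMSO 1 of the 9 was higher and 7 lower in deposited values, against 4.26% and 60.8% of all genes, with a median of -1.15 against -0.54. After quantile normalization 3 were higher and 3 lower, against 20.0% and 23.0%, with a median of -0.18. In E 5 were higher and 1 lower in deposited values, against 20.8% and 4.81%, and 4 and 2 after quantile normalization, against 15.3% and 16.2%. In DT 2 were higher and 4 lower on both scales, against 4.72% and 23.1% of all genes in deposited values and 14.6% and 15.0% after quantile normalization.

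Of 9 genes listed for control of the BIM protein 3 were measured, and 6 are not analysed here. MAPK3, which encodes the kinase ERK1, fell in DTE in deposited values (-0.94 ± 0.14, quantile 0.12 ± 0.10 with adjusted p = 0.4). BTRC, the ubiquitin ligase adaptor that recognizes phosphorylated BIM, fell likewise (-0.98 ± 0.14, quantile 0.12 ± 0.08 with adjusted p = 0.27). TRIM2, a ubiquitin ligase reported to act on BIM, fell in E on both scales (-0.77 ± 0.14, quantile -0.87 ± 0.08). In DTE TRIM2 fell in deposited values (-1.19 ± 0.14, adjusted p = 7.2e-08) and measured -0.10 ± 0.08 after quantile normalization (adjusted p = 0.33). In DT all 3 were called higher after quantile normalization, against 14.6% of all genes, MAPK3 by 0.37 ± 0.10, TRIM2 by 0.25 ± 0.08 and BTRC by 0.25 ± 0.08. In deposited values 0 of 3 passed limma's test in DT, against 27.8% of all genes, with 0 at an unadjusted p under 0.05.

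Of 14 genes downstream of the mitochondrial pore 6 were measured, and all 6 fell in DTE in deposited values, with a median of -1.27 and against 60.8% of all genes. ENDOG, a mitochondrial nuclease (-1.72 ± 0.13, quantile -0.73 ± 0.13), HTRA2, a protease that antagonizes inhibitors of apoptosis (-1.49 ± 0.14, quantile -0.42 ± 0.08), and BIRC5, which encodes survivin (-1.68 ± 0.18, quantile -0.76 ± 0.16), fell on both scales. BIRC2, which encodes the inhibitor cIAP1, fell in deposited values (-1.06 ± 0.14, quantile 0.03 ± 0.08 with adjusted p = 0.78). After quantile normalization 5 of the 6 were lower and 0 higher, against 23.0% and 20.0% of all genes. In DT against DMSO 2 of the 6 were lower and 0 higher in deposited values, against 23.1% and 4.72% of all genes. After quantile normalization 3 were higher in DT, against 14.6% of all genes, and 1 lower, against 15.0%. The higher ones were HTRA2 (0.39 ± 0.08), BIRC2 (0.33 ± 0.08) and APAF1, the scaffold of the apoptosome (0.32 ± 0.08), which is named because of this count, after its values were seen. In E against DMSO 0 were higher on either scale, against 20.8% of all genes in deposited values and 15.3% after quantile normalization. In the same arm 1 was lower in deposited values and 2 after quantile normalization, against 4.81% and 16.2% of all genes.

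The genes whose pattern over the 12 arrays was most like that of BCL2L11 were found by Pearson correlation of log2 values among 7290 other genes in the brighter part of the table, as a description. In deposited values they were SP4 (r = 0.984), LMTK2 (r = 0.980), FBXO32 (r = 0.978), MYO1D (r = 0.976) and GALNT10 (r = 0.972), where the median gene had r = 0.641. The arrays share their overall level, which enters these correlations. SP4 averaged an intensity of 141 in DT, 248 in E, 129 in DTE and 153 in DMSO, the same order of arms as BCL2L11. After quantile normalization the 5 genes were ARHGEF18 (r = 0.983), TMTC2 (r = 0.982), SNX24 (r = 0.980), TXNRD1 (r = 0.979) and OSMR (r = 0.977), against a median of -0.12. None of the first 5 was among the second, so the neighbours of BCL2L11 depend on the scaling. TXNRD1 then averaged 91.3 in DT, 144 in E, 239 in DTE and 72.3 in DMSO.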

How the data were processed

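The authors deposited a linear intensity for every probe set, from 2.35 to 8595.5 (array medians 16.8 to 31.9). The submitters' processing notes name RMA and Transcriptome Analysis Console without version or order. Per the labels' protocols, ERCC spike-in RNA was added before extraction. Whether it was used for scaling, and the genome build, are not given in the sources used here. A single gene could be assigned to 14750 of the 29398 probe sets, through gene identifiers and RefSeq, and 1 probe set a gene, the one with the highest mean, left 14582 genes. Log2 was taken with no pseudocount and no filter. All 12 arrays were fitted with 1 mean per arm by lmFit and eBayes (limma 3.58.1 under R 4.3.3), with Benjamini-Hochberg adjustment over all genes within each comparison and a threshold of 0.05. The procedure was tested on simulated data without a difference in overall level between arms, so that test does not bear on the scaling. Quantile normalization used all probe sets, and other alternatives are given in the closing section. The number of arrays limits the precision. The gene and the lists were chosen with earlier results of these data known. Named were every measured BCL2 symbol and pro-survival, BH3-only and effector gene, FOXO1 and FOXO3, from each of the other lists at most 4 genes, taken by smallest adjusted p, and the 5 nearest patterns. Same-numbered arrays did not deviate together: of 18 pairs between arms 2 had a correlation over 0.1 in deposited values and 0 after quantile normalization, so the numbers were not taken as pairs.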

Additional observations from a re-analysis of the deposited data

Results flagged for a closer look

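The entinostat effect on BCL2L11 differed between cells with and without dabrafenib plus trametinib by the interaction test in deposited values (-0.63, limma adjusted p = 0.016), with a DTE minus DT difference of -0.02 and an E minus DMSO difference of 0.61. The median of all genes was also -0.63, and after quantile normalization the interaction was 0.20 (adjusted p = 0.37). With 3 arrays an arm, no array was judged an outlier or removed, and the effect of leaving out each array is given below. With limma's array weights the interaction was -0.51 (limma adjusted p = 0.0057).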

How the results depend on the processing

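Scaling of the arrays decided the sign of 5 of the 6 BCL2L11 differences, and the E minus DMSO difference kept its sign and its call in all 23 alternatives. Under quantile normalization of all probe sets DT and DTE differed from DMSO by 0.21 and 0.91, DTE differed from DT by 0.70 and from E by 0.42, and the interaction was 0.20. Over named genes only, an alternative added after seeing the data, they were 0.23, 0.92, 0.70, 0.42 and 0.19 in the same order, and with median centring 0.072, 0.49, 0.42, 0.17 and 0.10. Centring on the brighter genes gave 0.19, 0.82, 0.63, 0.36 and 0.17. DTE against E had an adjusted p of 0.18 with median centring and of 0.0029 with centring on the brighter genes. Leaving out each array gave differences from DMSO of -0.26 to -0.04 in DT, 0.47 to 0.70 in E and -0.29 to -0.05 in DTE. DTE differed from DT by -0.12 to 0.08 and from E by -0.85 to -0.65, and the interaction was -0.72 to -0.49. DTE against DT turned positive without DT replicate 3 (0.06) and without DTE replicate 1 (0.077), and was called in neither. The interaction lost its call without DMSO replicate 3 (adjusted p = 0.053) or DTE replicate 1 (0.056). With an array left out before quantile normalization, added after seeing the data, DTE against DMSO was 0.86 to 0.96 and called in all 12 repeats, and DT against DMSO was 0.17 to 0.25 and called in 0. With the replicate number as a replicate block the E minus DMSO difference was 0.61 (adjusted p = 0.0078) and the interaction -0.63 (adjusted p = 0.023), and no BCL2L11 call changed. The cause of the scaling differences was not tested. Genes called numbered 9490 in deposited and 6269 in quantile-normalized values when DTE was set against DMSO, 8466 and 5020 against DT, 11489 and 2931 against E, and 9147 and 599 in the interaction. The rank difference was 22.5 points in DTE, 6.52 in DT and 13.9 in E when only brighter genes were ranked, which follows from the smaller number of genes. BCL2L11 minus pro-survival genes in DTE was 1.13 after quantile normalization and 0.98 without the dim BCL2L10. Leaving out each array gave rank differences of 10.8 to 11.8 in DTE, 2.65 to 3.76 in DT and 6.50 to 7.42 in E, and pro-survival differences of 0.72 to 0.90, 0.03 to 0.19 and 0.39 to 0.51.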
